A study of Mus musculus with 11 samples.

Results

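Glutathione transferases and glutathione peroxidases were examined in mouse embryonic stem (ES) cells with and without DNA methyltransferases. The 9 genes were 5 mu-class transferases (Gstm1, Gstm2, Gstm3, Gstm5 and Gstm6), the alpha-class transferase Gsta4, and the peroxidases Gpx1, Gpx2 and Gpx4. They were taken by symbol from a table of 24016 genes, of which 14229 reached 1 RPKM (reads scaled to the length of the transcript and the depth of the library) in at least 1 library, and all 9 were among these. The members were chosen by measured values, since earlier results of these libraries were known, among them the low Gstm3 level in lines with an enzyme put back and the high Gpx2 level in DKO against WT. For the 9 genes those comparisons, and that of TKO with WT, which shares their libraries, are therefore described here without a test. The remaining comparisons also use libraries from which the genes were chosen, so their p-values for the 9 genes are not free of that choice.

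Polyadenylated RNA had been sequenced from 11 libraries of J1-type ES cells of strain 129S4/SvJae, all kept with serum and mLIF on irradiated embryonic fibroblasts, which act as a feeder layer. Lines with Dnmt3a1, Dnmt3a2 or Dnmt3b1 put back into TKO, a knockout of Dnmt1, Dnmt3a and Dnmt3b, were sequenced in 2, 2 and 1 libraries. The same 3 enzymes had been put back into DKO, a knockout of Dnmt3a and Dnmt3b, with 1 library for each line. TKO, DKO and WT had 1 library each. Dnmt1 copies methylation to the new DNA strand after replication, while Dnmt3a and Dnmt3b place new methylation. Dnmt3a1 is the longer and Dnmt3a2 the shorter isoform of Dnmt3a. The labels do not say how many clones stand for a genotype or whether the 2 libraries of a line were separate cultures, so p-values reflect only how these libraries scatter, and clone and genotype cannot be told apart. Below, the TKO family means TKO with its 5 add-back libraries, and the DKO family means DKO with its 3.

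Glutathione is the main small thiol of the cell. Transferases join it to electrophilic compounds, which are then exported, and the glutathione peroxidases use it to reduce hydrogen peroxide and lipid hydroperoxides. Several of these genes are known targets of the transcription factor Nrf2 (Nfe2l2), which Keap1 keeps low in unstressed cells. In mouse the mu-class genes lie side by side on chromosome 3 and are close copies of each other. DNA methylation is placed at the dinucleotide CG, and promoters rich in it are mostly unmethylated.

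The promoter windows of the 4 mu-class genes that separated every add-back library from both parent lines, and of Gpx2, are shown because they differ in their CG content. Each runs from 250 bases before to 50 bases after the outermost start site in RefSeq on build GRCm38.p6, 5′ to 3′ on the gene's strand, with each CG in capitals.
Gstm5, chr3:107895604-107895903, plus strand: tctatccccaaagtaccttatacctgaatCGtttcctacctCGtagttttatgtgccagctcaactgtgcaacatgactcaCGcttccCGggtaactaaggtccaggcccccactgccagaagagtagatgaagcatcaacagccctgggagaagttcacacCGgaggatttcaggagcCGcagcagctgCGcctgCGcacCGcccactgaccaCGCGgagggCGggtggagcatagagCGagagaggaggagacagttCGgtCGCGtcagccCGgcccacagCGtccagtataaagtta
Gstm3, chr3:107969125-107969424, minus strand: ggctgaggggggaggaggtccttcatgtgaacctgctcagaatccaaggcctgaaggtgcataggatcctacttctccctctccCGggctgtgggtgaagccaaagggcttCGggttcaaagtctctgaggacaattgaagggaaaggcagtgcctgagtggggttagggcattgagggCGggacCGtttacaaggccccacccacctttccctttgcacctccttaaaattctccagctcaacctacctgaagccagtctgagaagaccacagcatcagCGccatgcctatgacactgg
Gstm2, chr3:107986371-107986670, minus strand: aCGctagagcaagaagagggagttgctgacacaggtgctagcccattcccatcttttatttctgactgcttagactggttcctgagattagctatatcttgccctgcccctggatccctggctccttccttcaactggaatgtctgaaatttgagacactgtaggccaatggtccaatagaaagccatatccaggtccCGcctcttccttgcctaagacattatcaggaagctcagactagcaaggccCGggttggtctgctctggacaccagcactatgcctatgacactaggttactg
Gstm1, chr3:108017924-108018223, minus strand: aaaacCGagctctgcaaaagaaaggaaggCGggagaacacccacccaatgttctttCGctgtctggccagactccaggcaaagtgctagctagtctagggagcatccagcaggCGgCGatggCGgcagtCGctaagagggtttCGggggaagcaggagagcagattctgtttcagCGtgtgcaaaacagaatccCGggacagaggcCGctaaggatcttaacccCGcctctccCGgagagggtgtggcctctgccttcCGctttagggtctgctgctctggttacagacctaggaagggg
Gpx2, chr12:76795505-76795804, minus strand: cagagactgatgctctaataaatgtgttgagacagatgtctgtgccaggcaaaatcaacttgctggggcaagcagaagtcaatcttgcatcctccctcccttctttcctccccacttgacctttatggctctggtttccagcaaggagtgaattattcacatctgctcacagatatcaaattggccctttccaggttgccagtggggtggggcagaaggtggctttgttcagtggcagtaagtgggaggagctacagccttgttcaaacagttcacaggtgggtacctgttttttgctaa
The window of Gstm5 held 18 CG, that of Gstm1 14 (8 at its other start site), that of Gstm3 5, that of Gstm2 3 and that of Gpx2 0. Over all 32851 promoter windows of this length the median was 7 CG, the quartiles were 3 and 20, and 5.43% held none. Gstm6 had windows at 3 start sites with 4 to 9 CG, Gpx1 1 window with 11, and Gpx4 4 windows with 3 to 31. In all, 8 of the 9 genes had a window, the exception being Gsta4. The core of the antioxidant response element to which Nrf2 binds, TGACNNNGC, was searched on both strands and occurred 1 time in the 14 windows of these genes, as TGACCACGC in Gstm5, starting 42 bases before the start site (offset -42). Of all windows, 12.4% held this core, and the search says only which letters are present. Methylation itself was not analysed here.

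Depth, inferred from the spacing of the RPKM values, was 21.8 to 32.8 M reads per library. The Dnmt1 transcript was low with the Dnmt1 knockout, at 6.73 to 12.4 RPKM in the TKO family, against 55.9 to 74.5 RPKM in the DKO family and 71.0 RPKM in WT. Dnmt3a was at 4.24 RPKM in TKO and 3.63 RPKM in DKO, against 22.7 RPKM in WT. Dnmt3b was at 5.68 RPKM in DKO but 45.3 RPKM in TKO, above WT. The labels do not give the deleted part, so a level over the whole Dnmt3b transcript is no check of the TKO label. All 12 ES cell markers were at 1 RPKM or more in every library. Markers of fibroblasts, the cell type of the feeder layer, and of macrophages differed between libraries. The 30 fibroblast markers summed to 4958 and 3683 RPKM in the TKO+Dnmt3b1 and DKO+Dnmt3b1 libraries and to 433 RPKM in DKO+Dnmt3a2, with 840 RPKM in WT and 1073 to 1841 RPKM in the other 7. The 19 macrophage markers summed to 1380 and 1187 RPKM in the Dnmt3b1 libraries, 207 RPKM in DKO+Dnmt3a2, 267 RPKM in WT and 288 to 626 RPKM elsewhere, with 7 of them at 0 in DKO+Dnmt3a2 and 1 in DKO+Dnmt3a1. In such bulk RNA, fewer cells of a type and less RNA per cell cannot be told apart.

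Each of the 5 mu-class genes was lower in every library with an enzyme put back than in its own knockout parent. Their summed level was 42.8 to 69.2 RPKM in the 5 TKO add-back libraries, against 101 RPKM in TKO. It was 31.0 to 38.0 RPKM in the 3 DKO add-back libraries, against 114 RPKM in DKO, and WT had 52.4 RPKM. Gstm1, Gstm2, Gstm3 and Gstm5 were lower in all 8 add-back libraries than in either parent, a pattern that 6.21% of all tested genes showed. All 5 mu-class genes were lower in each add-back library than in its own parent, as were 12.3% of tested genes. None of the 9 genes was higher in all 8, a pattern found in 8.47% of tested genes. By size, 4 of the 9 (Gstm3, Gstm1, Gstm6 and Gpx2) were lower by 1 or more on the log2 scale over both families, as were 2.11% of tested genes. These counts describe how the genes were chosen and are not evidence about them.

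**Figure D1:**
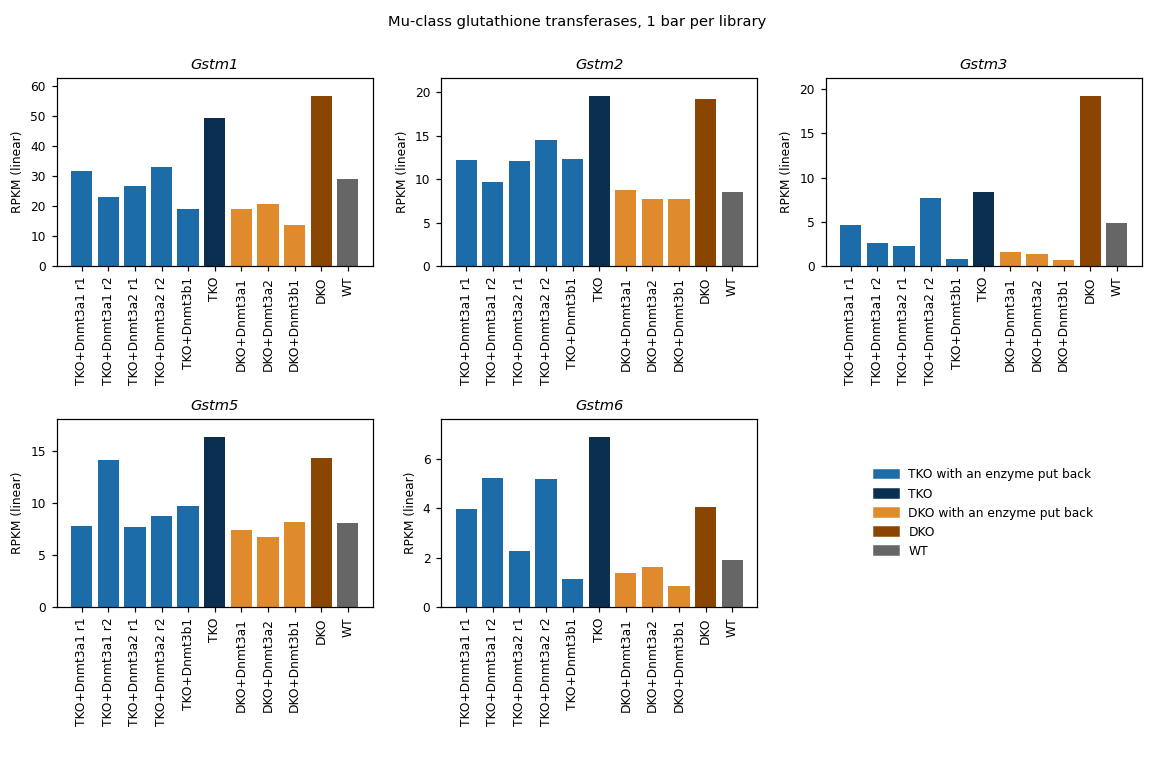
RPKM of the 5 mu-class transferases (y axes, linear, from 0) in each of the 11 libraries (x axes); each bar is 1 library and r1 and r2 are the libraries of a line. TKO (dark blue) and DKO (dark brown) stand above all their add-back libraries in each panel, and Gstm3 runs from 0.682 RPKM in DKO+Dnmt3b1 to 19.3 RPKM in DKO.

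Gstm3 had the widest range of the 5 mu-class genes as a ratio of the highest to the lowest level, though not in RPKM, where Gstm1 spanned more. It was at 4.66 and 2.61 RPKM in TKO+Dnmt3a1, 2.25 and 7.72 RPKM in TKO+Dnmt3a2 and 0.799 RPKM in TKO+Dnmt3b1, against 8.38 RPKM in TKO. It was at 1.53 RPKM in DKO+Dnmt3a1, 1.33 RPKM in DKO+Dnmt3a2 and 0.682 RPKM in DKO+Dnmt3b1, against 19.3 RPKM in DKO, and at 4.86 RPKM in WT. DKO was the highest library, all 3 DKO add-back libraries were below WT, and the 2 libraries of TKO+Dnmt3a2 lay far apart, 1 of them close to TKO. The DKO add-back lines held 0.0792, 0.0690 and 0.0353 of the DKO level. The lowest values rested on about 22.8 reads in TKO+Dnmt3b1 and 29.1 reads in DKO+Dnmt3b1. On the log2(RPKM + 0.5) scale, which understates changes of low genes, the difference of add-back and parent over both families was -2.52 ± 0.53 (SE, 8 libraries against 2). It was -3.60 within the DKO family and -1.61 within the TKO family. Without DKO the value was -1.54, and without TKO it was -3.60.

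Gstm1, the most abundant mu-class gene per length, was at 31.6 and 22.9 RPKM in TKO+Dnmt3a1, 26.8 and 33.0 RPKM in TKO+Dnmt3a2 and 18.9 RPKM in TKO+Dnmt3b1, against 49.4 RPKM in TKO. It was at 19.0, 20.6 and 13.6 RPKM in DKO+Dnmt3a1, DKO+Dnmt3a2 and DKO+Dnmt3b1, against 56.8 RPKM in DKO, and at 29.1 RPKM in WT. The parents were the highest libraries and the Dnmt3b1 line the lowest of each family. The log2 difference of add-back and parent was -1.31 ± 0.18 (SE), with -1.67 in the DKO family and -0.98 in the TKO family. Gstm1 and Gstm3 share 10.9% and 15.8% of their stretches of 50 bases with another of the transcripts compared. These were the 9 members, Gstm4, Gstm7, Gpx3, Gpx6 and the pseudogene Gpx2-ps1, and no other transcript was searched. Among them Gstm1 and Gstm3 were each other's closest copy, so part of their reads could be split between them.

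Gstm2 was at 12.2 and 9.71 RPKM in TKO+Dnmt3a1, 12.1 and 14.5 RPKM in TKO+Dnmt3a2 and 12.3 RPKM in TKO+Dnmt3b1, against 19.6 RPKM in TKO. In the DKO family it was at 8.75, 7.72 and 7.70 RPKM with Dnmt3a1, Dnmt3a2 and Dnmt3b1 put back, against 19.2 RPKM in DKO, and WT had 8.49 RPKM. The DKO add-back lines thus lay close to WT, while all 5 TKO add-back libraries lay between WT and TKO. The transcript of Gstm5 shares no stretch of 50 bases with the other transcripts compared. Gstm5 was at 7.73 and 14.1 RPKM in TKO+Dnmt3a1, 7.69 and 8.75 RPKM in TKO+Dnmt3a2 and 9.66 RPKM in TKO+Dnmt3b1, against 16.4 RPKM in TKO. It was at 7.34, 6.71 and 8.16 RPKM in the DKO lines with Dnmt3a1, Dnmt3a2 and Dnmt3b1, against 14.3 RPKM in DKO, and at 8.02 RPKM in WT. In 1 TKO+Dnmt3a1 library it was nearly as high as in DKO, and in most other add-back libraries it was near WT.

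Gstm6 was the only mu-class gene of the 5 whose add-back and parent libraries overlapped. It was at 3.98 and 5.25 RPKM in TKO+Dnmt3a1, 2.28 and 5.18 RPKM in TKO+Dnmt3a2 and 1.15 RPKM in TKO+Dnmt3b1, against 6.92 RPKM in TKO. It was at 1.39, 1.63 and 0.870 RPKM in the DKO lines with Dnmt3a1, Dnmt3a2 and Dnmt3b1, against 4.08 RPKM in DKO, and at 1.89 RPKM in WT. The overlap came from 2 libraries of the TKO family that were above DKO. The log2 difference of add-back and parent was -1.26 ± 0.30 (SE).

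The neighbourhood of the cluster was compared through RefSeq gene order, because the table holds no coordinates. The 7 mu-class genes of the cluster run in the order Gstm5, Gstm7, Gstm6, Gstm3, Gstm2, Gstm1 and Gstm4. All 7 were lower in each add-back library than in its own parent, against 2 of the 8 tested genes among the nearest 5 on either side (Ahcyl1 and Amigo1) and 12.3% of all tested genes. Of the 7, 5 had been chosen with their low add-back levels known, so the count is a description, and only Gstm4 and Gstm7 are outside that choice. Of these 7, 6 were above WT in TKO and 5 in DKO, against 7 and 4 of the 8 neighbours. Gstm4 was at 12.0 RPKM in TKO and 6.01 RPKM in DKO, against 8.77 RPKM in WT. Gstm7 ran from 0.512 to 1.97 RPKM over the 11 libraries, with WT the highest. Csf1, a macrophage growth factor, is the nearest tested gene outside the cluster on the Gstm5 side. Csf1 followed another order, with 149 and 147 RPKM in 1 TKO+Dnmt3a2 library and TKO+Dnmt3b1 and 8.38 RPKM in DKO.

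**Figure D2:**
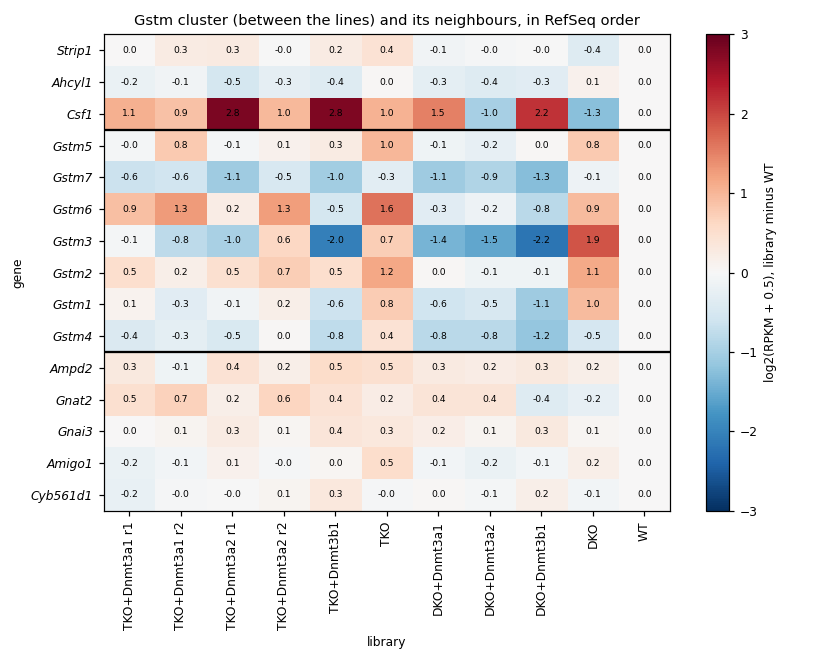
Colour and number give log2(RPKM + 0.5) of each library minus WT, with the 7 genes of the Gstm cluster between the black lines and 8 neighbouring genes outside them (rows, in RefSeq order) and the 11 libraries as columns. TKO and DKO are red for Gstm5, Gstm6, Gstm3, Gstm2 and Gstm1, while in these 2 columns the neighbours other than Csf1 are paler.

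Gpx2, a peroxidase best known from the gut epithelium, was of the 9 genes the furthest above WT. It was at 11.2 and 4.85 RPKM in TKO+Dnmt3a1, 13.7 and 24.8 RPKM in TKO+Dnmt3a2, 8.36 RPKM in TKO+Dnmt3b1 and 11.6 RPKM in TKO. It was at 3.91, 3.22 and 5.81 RPKM in DKO+Dnmt3a1, DKO+Dnmt3a2 and DKO+Dnmt3b1 and 19.2 RPKM in DKO, against 1.14 RPKM in WT. All 10 knockout and add-back libraries were above WT, and DKO had 16.9 times the WT level. The DKO add-back lines kept 0.203, 0.167 and 0.302 of the DKO level, whereas the TKO add-back libraries ran from 0.419 to 2.14 times the TKO level. The log2 difference of add-back and parent was -1.02 ± 0.53 (SE), made up of -2.07 in the DKO family and -0.14 in the TKO family, and it was -0.07 without DKO and -2.07 without TKO. Of the 50-base stretches of Gpx2, 94.4% also occur in the pseudogene Gpx2-ps1 on chromosome 7, which was listed at 0 to 0.461 RPKM, so the level of Gpx2 is uncertain by what the authors did with reads that match both.

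Gpx1, the common cytosolic peroxidase for hydrogen peroxide, was also above WT in every library. It was at 199 and 235 RPKM in TKO+Dnmt3a1, 260 and 268 RPKM in TKO+Dnmt3a2, 339 RPKM in TKO+Dnmt3b1 and 233 RPKM in TKO. It was at 173, 176 and 283 RPKM in DKO+Dnmt3a1, DKO+Dnmt3a2 and DKO+Dnmt3b1 and 135 RPKM in DKO, against 104 RPKM in WT. Gpx1 and Gpx2 were the 2 of 9 genes with all 10 libraries above WT, a pattern of 14.2% of tested genes. All 10 are set against 1 WT library, whose low Gpx2 level entered the choice of Gpx2, so nothing is read from this count. The Dnmt3b1 lines were the highest of each family for Gpx1, and these also had the highest fibroblast and macrophage marker sums, whose part in the Gpx1 level was not tested.

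Gpx4, which reduces lipid hydroperoxides in membranes and protects cells from ferroptosis, was at 385 and 337 RPKM in TKO+Dnmt3a1, 257 and 380 RPKM in TKO+Dnmt3a2, 190 RPKM in TKO+Dnmt3b1 and 218 RPKM in TKO. It was at 274, 262 and 163 RPKM in DKO+Dnmt3a1, DKO+Dnmt3a2 and DKO+Dnmt3b1 and 315 RPKM in DKO, against 323 RPKM in WT. The Dnmt3b1 lines were the lowest of each family. Gsta4, which conjugates the lipid peroxidation product 4-hydroxynonenal, was at 255 and 141 RPKM in TKO+Dnmt3a1, 199 and 214 RPKM in TKO+Dnmt3a2, 120 RPKM in TKO+Dnmt3b1 and 162 RPKM in TKO. It was at 187, 199 and 163 RPKM in DKO+Dnmt3a1, DKO+Dnmt3a2 and DKO+Dnmt3b1 and 169 RPKM in DKO, against 224 RPKM in WT. Its 2 TKO+Dnmt3a1 libraries spanned nearly the whole range of the other libraries.

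**Figure D3:**
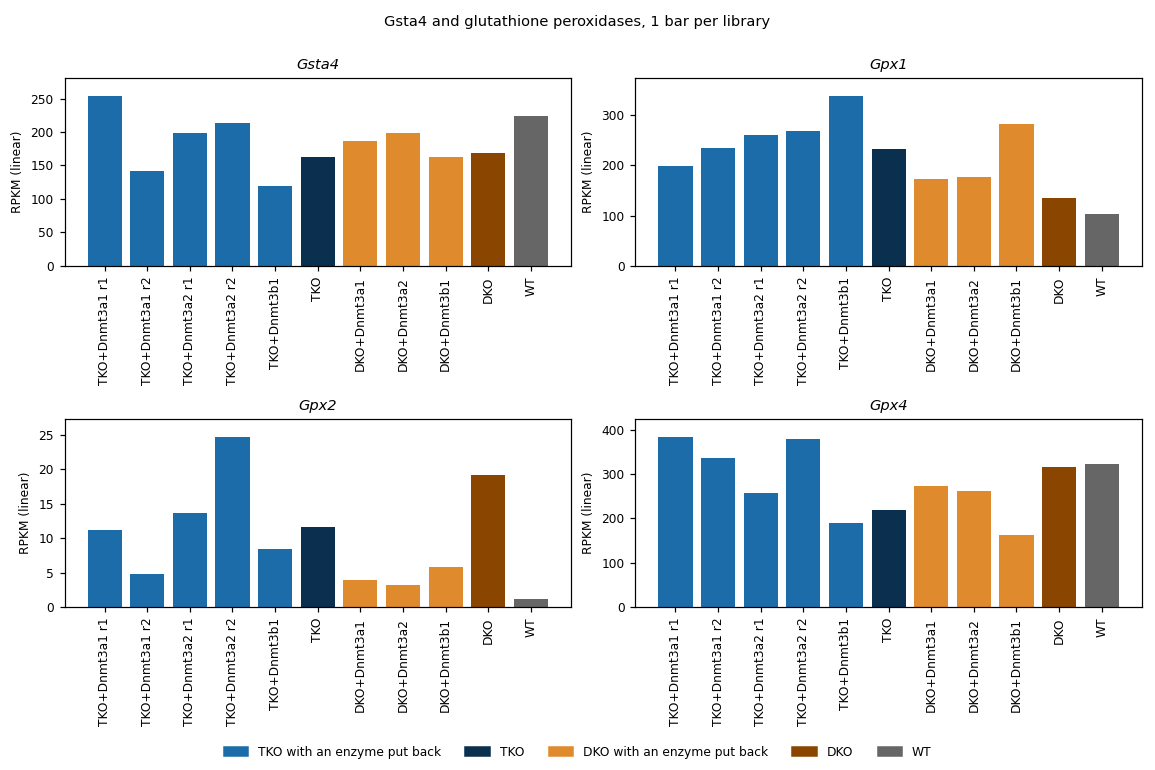
RPKM of Gsta4, Gpx1, Gpx2 and Gpx4 (y axes, linear, from 0) in each of the 11 libraries (x axes), 1 bar per library. Gpx1 and Gpx2 are above the WT bar in all 10 other libraries, and Gpx2 is at 19.2 RPKM in DKO, against 1.14 RPKM in WT.

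The TKO family was set against the DKO family, with the enzyme put back held equal, to see whether the additional loss of Dnmt1 went with other levels. Gpx1 was higher in the TKO family, with 199 to 339 RPKM (median 247 RPKM) in its 6 libraries, against 135 to 283 RPKM (median 175 RPKM) in the 4 of the DKO family, and a log2 change of 0.48 ± 0.11 (SE, limma adjusted p 0.0171). Gstm6 was higher too, with 1.15 to 6.92 RPKM (median 4.58 RPKM) in the TKO family, against 0.870 to 4.08 RPKM (median 1.51 RPKM) in the DKO family, and a log2 change of 0.87 ± 0.25 (SE, limma adjusted p 0.0384). The libraries of the families overlapped for both genes. These 2 of 9 genes compare with 21% of tested genes called in either direction and 14.4% called higher, so their share is near the background. The 9 genes were chosen from values of these same libraries, so their p-values here are not free of that choice. The median change of the 9 genes was 0.44, with 8 above 0, beside a median of 0.11 over all tested genes.

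Of all tested genes, 2043 were higher and 947 lower in the TKO family, but with quantile normalization 1233 were higher and 1522 lower, with median ratio scaling 1556 and 1470, and with chromosome medians removed 1555 and 1389. Quantile normalization moved the median of all genes to -0.01. The Gstm6 call was lost under these scalings, at adjusted p 0.103, 0.0509 and 0.0546, with no filter on low values (0.0748), with 9 group means (0.0846), and at 0.0572 to 0.155 when TKO, DKO, DKO+Dnmt3a1, DKO+Dnmt3a2, either TKO+Dnmt3a1 library or replicate 2 of TKO+Dnmt3a2 was left out. The Gpx1 call was lost without DKO+Dnmt3a2 (0.44, adjusted p 0.103), the library with the lowest fibroblast and macrophage sums.

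Other genes of the pathway differed between the families in both directions. Among 18 other transferases, 5 rose and 1 fell, against 14.4% of all tested genes higher and 6.66% lower. With quantile normalization 3 of them rose and 1 fell. Gstp2, a pi-class transferase, had a log2 change of 1.35 ± 0.21 (SE, limma adjusted p 0.00544), and Gsta3, Gstp1 and Ltc4s of 0.86, 0.72 and 0.71. Ltc4s, 1 of the 5, was at 1.01 to 1.79 RPKM in the TKO family, against 0.535 to 0.829 RPKM in the DKO family. It passed the filter of 1 RPKM only through the TKO family, so nothing is read from its call. Gstm4, a further member of the mu cluster, rose by 0.58 on the log2 scale, and the theta-class gene Gstt2 fell by 0.92. None of 4 other peroxidases was called. Gpx3, the secreted peroxidase, was at 12.0 to 25.2 RPKM in the TKO family, against 8.78 to 27.6 RPKM in the DKO family.

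Of 19 genes of the Nrf2 list, 5 rose and 0 fell, against the same 14.4% and 6.66% of all tested genes, and 3 rose with chromosome medians removed and 2 without both Dnmt3b1 libraries. Nqo1, a quinone reductase widely used as a readout of Nrf2, was at 12.4 and 14.5 RPKM in TKO+Dnmt3a1, 20.5 and 19.9 RPKM in TKO+Dnmt3a2, 28.1 RPKM in TKO+Dnmt3b1 and 27.8 RPKM in TKO. It was at 4.69, 5.08 and 12.5 RPKM in DKO+Dnmt3a1, DKO+Dnmt3a2 and DKO+Dnmt3b1 and 6.61 RPKM in DKO, and at 9.04 RPKM in WT. Of the TKO family 5 libraries were above every DKO family library, and the log2 change was 1.62 ± 0.14 (SE, limma adjusted p 0.000485). The related factor Nfe2l1 rose by 0.86 and the autophagy receptor Sqstm1 by 0.67. Both lie on chromosome 11, as do Ltc4s and Selm, and the median difference from WT over the genes of that chromosome was 0.20 to 0.55 in the TKO family libraries, against -0.07 to 0.05 in those of the DKO family. With chromosome medians removed the change was 0.51 for Nfe2l1 (limma adjusted p 0.00989) and 0.50 for Selm (0.0202), whereas the calls of Sqstm1 (0.32, 0.208) and Ltc4s (0.35, 0.127) were lost. Over all 11 libraries Nfe2l2 itself ran from 30.0 to 47.7 RPKM and Keap1 from 6.12 to 13.7 RPKM, and neither was called between the families.

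Of 24 genes for glutathione synthesis and recycling, 5 rose and 4 fell, against 14.4% of all tested genes higher and 6.66% lower. With quantile normalization, median ratio scaling or chromosome medians removed 4 rose and 5 fell, and without both Dnmt3b1 libraries 3 and 2. The gamma-glutamyl transferase Ggt1, which splits extracellular glutathione, rose by 1.46, Chac1, which splits it inside the cell, by 0.85, the synthetase Gss by 0.63 and the transporter subunit Slc3a2 by 0.54 on the log2 scale. The exporter Abcc4 fell by 1.55, the cystine importer Slc7a11 by 1.12, Glrx2 by 0.39 and G6pdx by 0.31. Slc7a11 was at 0.0810 to 1.05 RPKM in the TKO family, against 0.800 to 2.01 RPKM in the DKO family, so its call rests on low values. Gclc and Gclm, the subunits of the rate-limiting ligase, ran from 16.1 to 24.2 RPKM and from 33.0 to 45.6 RPKM over all 11 libraries, and glutathione reductase Gsr from 27.9 to 59.2 RPKM.

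Of 20 genes of other peroxide and superoxide removal, 3 rose and 1 fell, also with quantile normalization. With median ratio scaling 1 rose and 2 fell, with chromosome medians removed 2 and 1, and without both Dnmt3b1 libraries 2 and 0. In the main fit Txnip, an inhibitor of thioredoxin, rose by 0.86 (limma adjusted p 0.0499), catalase (Cat) by 0.55 and Prdx3 by 0.34, and Prdx2 fell by 0.41. Prdx1 ran from 532 to 730 RPKM and the thioredoxin reductase Txnrd1 from 103 to 141 RPKM over all libraries. Of 17 selenoprotein genes and their synthesis factors, 2 rose (Selm and Sepn1) and 1 fell (Sephs1). In the same comparison 1 of 30 fibroblast markers, 1 of 17 tested macrophage markers, 10 of 12 primitive endoderm markers and 5 of 8 trophoblast markers rose, and of 12 ES cell markers 2 rose and 4 fell. Their part in these changes was not tested. Beside each count of this paragraph, 14.4% of all tested genes were higher and 6.66% lower in the main fit.

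Among lines with an enzyme put back, Dnmt3b1 was set against the Dnmt3a isoforms. Gpx1 was higher with Dnmt3b1, at 339 and 283 RPKM, against 173 to 268 RPKM (median 217 RPKM) in the 6 Dnmt3a libraries, and a log2 change of 0.60 ± 0.13 (SE, limma adjusted p 0.0159). Gpx4 was lower, at 190 and 163 RPKM, against 257 to 385 RPKM (median 306 RPKM), and a change of -0.80 ± 0.21 (SE, limma adjusted p 0.0300). Gstm6 was lower, at 1.15 and 0.870 RPKM, against 1.39 to 5.25 RPKM (median 3.13 RPKM), and a change of -1.04 ± 0.31 (SE, limma adjusted p 0.0448). These 3 of 9 genes (1 higher and 2 lower) compare with 20.7% of tested genes called in either direction, 13.5% higher and 7.17% lower. The 9 genes were chosen from values that include these libraries, so their p-values here are not free of that choice. Over all genes 1923 were higher and 1020 lower, but with quantile normalization 1690 and 1814. Gstm3 was at 0.799 and 0.682 RPKM with Dnmt3b1, against 1.33 to 7.72 RPKM, and its change of -1.35 ± 0.55 did not pass (SE, limma adjusted p 0.110). Gstm3 and Gstm6 were the 2 of 9 genes lower by 1 or more, as were 1.53% of tested genes.

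The libraries did not overlap for Gpx1, which was higher with Dnmt3b1 as were 19.3% of tested genes, nor for Gstm1, Gstm3, Gstm6 and Gpx4, which were lower as were 15.3% of tested genes. All 30 fibroblast markers (median log2 change 2.42) and 15 of 17 tested macrophage markers (2.70) rose with Dnmt3b1, 6 of 12 ES cell markers fell, 8 of 12 primitive endoderm markers rose and 1 of 8 trophoblast markers fell. The part of these markers in the changes of Gpx1, Gpx4 and Gstm6 was not tested. In each Dnmt3b1 library 17 macrophage markers were at 1 RPKM or more, against 3 to 10 in the Dnmt3a libraries. Some may have passed the filter only through Dnmt3b1, so the share called and the median change are not free of the filter. Without TKO+Dnmt3b1 or without DKO+Dnmt3b1 none of the 9 genes was called, with Gpx1 at 0.75 (adjusted p 0.119) and 0.47 (adjusted p 0.164), Gpx4 at -0.87 and -0.74, and Gstm6 at -0.63 and -1.40. The Gpx4 call was also lost without either TKO+Dnmt3a1 library or DKO+Dnmt3a2, at adjusted p 0.0539 to 0.0569. The Gstm6 call was also lost without TKO, DKO, DKO+Dnmt3a2, either TKO+Dnmt3a1 library or replicate 2 of TKO+Dnmt3a2, at adjusted p 0.0549 to 0.0840. With no filter on low values adjusted p was 0.0558 for Gpx4 and 0.0815 for Gstm6, with 9 group means 0.0568 and 0.0952, and with a pseudocount of 1 it was 0.0541 for Gstm6. In the TKO family alone it was 0.166 for Gpx1, 0.130 for Gpx4 and 0.112 for Gstm6.

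**Figure D4:**
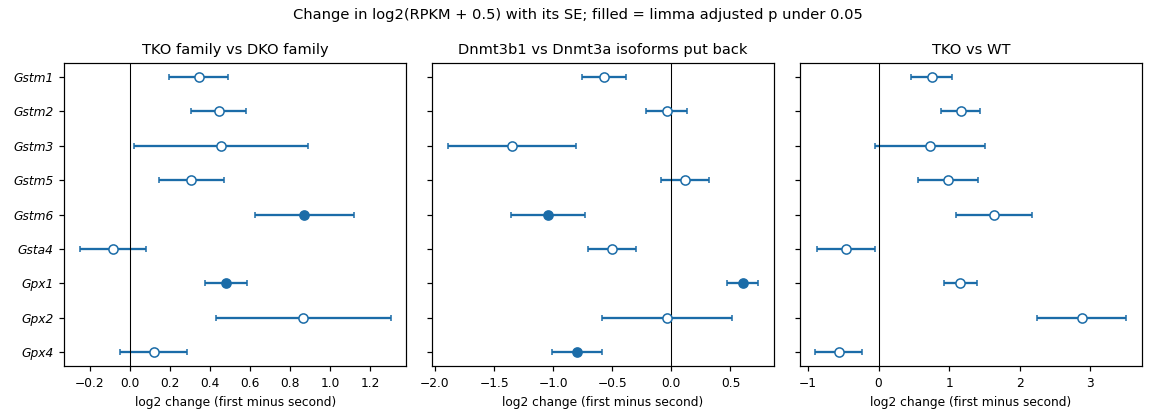
Change in log2(RPKM + 0.5) of the 9 genes with its SE (x axes; rows are genes) in 3 comparisons, the group named first minus the group named second; filled points passed limma's adjusted p of 0.05 over all tested genes. Gpx1 and Gstm6 are filled for the TKO family against the DKO family, and Gpx1, Gpx4 and Gstm6 for Dnmt3b1 against the Dnmt3a isoforms. For TKO against WT the 9 genes are described and not tested, so the open points there stand for no test outcome.

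Of the pathway lists, 5 of 18 other transferases rose with Dnmt3b1 and none fell, against 13.5% of all tested genes higher and 7.17% lower, and with quantile normalization 5 rose and 3 fell. Gsto1, an omega-class transferase, was at 173 and 129 RPKM with Dnmt3b1, against 23.6 to 54.3 RPKM with the Dnmt3a isoforms, a log2 change of 2.06 ± 0.21 (SE, limma adjusted p 0.00149). Gsto2 rose by 2.26, the prostaglandin E synthase Ptges by 1.81 and the prostaglandin D synthase Hpgds by 1.08 on the log2 scale, and Mgst1, a microsomal transferase, by 1.01. Hpgds, 1 of the 5, was at 1.05 and 1.07 RPKM with Dnmt3b1, against 0 to 0.553 RPKM with the Dnmt3a isoforms. It passed the filter of 1 RPKM only through the Dnmt3b1 libraries, so nothing is read from its call. Of 4 other peroxidases Gpx8, which sits in the endoplasmic reticulum, rose, at 60.0 and 43.1 RPKM with Dnmt3b1, against 3.62 to 22.0 RPKM. Gpx7 ran from 5.60 to 11.9 RPKM over all libraries.

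Of 19 Nrf2 list genes 7 rose with Dnmt3b1 and 0 fell, beside the same 13.5% and 7.17% of all tested genes. Among them were Osgin1, which rose by 1.09, Nqo1 by 1.01, Ugdh by 0.94, Me1 by 0.91, the haem oxygenase Hmox1 by 0.89 and Keap1 by 0.61. Of 24 synthesis and recycling genes 4 rose (Glrx by 1.37, Slc7a11 by 1.04, Gss by 0.62 and Abcc1 by 0.51) and 1, the glyoxalase Hagh, fell by 0.80. The call of Slc7a11 again rests on the low values given above. With quantile normalization 3 of these 24 rose and 3 fell, and with chromosome medians removed 3 and 2. Of 20 peroxide and superoxide genes 3 rose (the extracellular superoxide dismutase Sod3 by 1.55, Srxn1 by 1.25 and Prdx5 by 0.39) and Sesn3 fell by 0.43. With chromosome medians removed 2 of these 20 rose and 2 fell, and with median ratio scaling 2 and 1. Of 17 selenoprotein genes 6 rose, led by Sepn1 at 1.11, and Sephs2 fell by 0.35. These rises stand beside the rise of the fibroblast and macrophage markers in the same libraries, whose part was not tested.

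In TKO against WT, Gpx2 was at 11.6 RPKM in TKO, against 1.14 RPKM in WT, a log2 difference of 2.88 ± 0.63 (SE). The difference was 1.64 ± 0.54 for Gstm6, 1.16 ± 0.27 for Gstm2 and 1.16 ± 0.23 for Gpx1 (SE). These 4 of 9 genes were higher by 1 or more, as were 8.39% of tested genes. The median over the 9 genes was 0.98, with 7 above 0, beside 0.13 over all tested genes, of which 60.3% were above 0. The TKO and WT libraries both entered the comparisons from which the genes were chosen, so nothing is read from these counts. The median difference of TKO and WT was 0.23 over the genes of chromosome 3, where the mu-class genes lie, 0.27 on chromosome 12 (Gpx2) and -0.01 on chromosome 9 (Gpx1 and Gsta4). Each group had 1 library, and its spread was taken from the 2 replicated lines. By limma 0.344% of all tested genes were called. For the 9 genes no test outcome is read here, since they are only described in this comparison. The 1 call in the pathway lists was Gstp2, at 64.8 RPKM in TKO, against 15.6 RPKM in WT (2.02 ± 0.23, SE, adjusted p 0.0488), and Gstp1 was at 71.5 RPKM in TKO, against 29.5 RPKM in WT. No gene was called in this comparison when any of the 4 TKO+Dnmt3a1 and TKO+Dnmt3a2 libraries was left out, nor with quantile normalization.

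In DKO against WT, 3 of the 9 genes were higher by 1 or more on the log2 scale, as were 4.43% of tested genes, in a comparison from which at least Gpx2 was chosen. They were Gpx2 at 3.59 ± 0.63, Gstm3 at 1.88 ± 0.78 and Gstm2 at 1.14 ± 0.27 (SE). This comparison and that of TKO share the WT library. No gene at all passed limma's adjusted p in DKO against WT, with 1181 at an unadjusted p under 0.05 and a smallest adjusted p of 0.163. Gstp1 was at 59.5 RPKM and Gstp2 at 48.8 RPKM in DKO.

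For lines with an enzyme put back against their parents, few genes of the pathway lists were called. Gsto1 and Gsto2 rose by 1.09 and 1.04, and the transferase Gstk1 fell by 0.95, the malic enzyme Me1 by 1.18 and Sesn3 by 0.85 on the log2 scale (limma adjusted p 0.0290 to 0.0473). Gstk1 lies on chromosome 6, whose median difference from WT was 0.48 in TKO and -0.06 to 0.17 in its add-back libraries. With chromosome medians removed, 2 of the 18 other transferases were called higher and 1 lower, as in the main fit. The part of the chromosome in the fall of Gstk1 was not tested. Gsto2 was at 5.56 and 4.47 RPKM in the Dnmt3b1 libraries and at 0.388 to 1.04 RPKM in the other 6 add-back libraries, against 0.609 RPKM in TKO and 0.295 RPKM in DKO. Without both Dnmt3b1 libraries, which also had the highest fibroblast and macrophage marker sums, none of these 5 genes was called, and the changes of Gsto1 and Gsto2 were 0.40 and 0.29 (adjusted p 0.378 and 0.565). The other 3 were then at -0.72 to -1.50 (adjusted p 0.121 to 0.125). Over all genes 3.93% were called (159 higher and 400 lower, and with quantile normalization 255 and 389), and without both Dnmt3b1 libraries only 3 genes of all were called in place of 559. With 1 library left out the count over all genes was 0 without DKO, 2 or 3 without TKO+Dnmt3b1, replicate 2 of TKO+Dnmt3a1 or any DKO add-back line, 15 without replicate 1 of TKO+Dnmt3a1 and 67 without replicate 1 of TKO+Dnmt3a2. No gene was called in the lists for the other peroxidases (4 genes), for synthesis and recycling (24) or for selenoproteins (17), and none of the fibroblast, macrophage, ES cell, primitive endoderm or trophoblast markers.

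TKO+Dnmt3a1 was compared with TKO+Dnmt3a2, the only lines with 2 libraries each. None of the 9 genes was called, beside 0.00703% of tested genes (1 gene, and 611 at an unadjusted p under 0.05). Gpx2 was at 11.2 and 4.85 RPKM with Dnmt3a1, against 13.7 and 24.8 RPKM with Dnmt3a2, a log2 change of -1.26 ± 0.45 (SE, limma adjusted p 0.903). It was the 1 gene of 9 lower by 1 or more, as were 0.583% of tested genes. The 2 libraries within each line lay far apart. The change was -1.82 and -0.70 without replicate 1 and 2 of TKO+Dnmt3a1, and -1.68 and -0.85 without replicate 1 and 2 of TKO+Dnmt3a2. Gpx1 was at 199 and 235 RPKM with Dnmt3a1, against 260 and 268 RPKM with Dnmt3a2. No pathway gene was called.

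The 5 mu-class genes were positively correlated over the 11 libraries, with Pearson's r of log2(RPKM + 0.5) from 0.554 (Gstm3 and Gstm5) to 0.958 (Gstm1 and Gstm3). The points share lines, and the high values of both parents enter every pair. Gpx2 had r of 0.785 with Gstm2 and 0.463 with Gstm3, and Gpx1 -0.460 with Gstm3. The tested genes most like Gstm3 were Ltk (0.974), Cyp27a1 (0.974), Heca (0.969), Pik3ip1 (0.966) and Plcg1 (0.962), with Gstm1 at rank 7, Gstm6 at 843, Gstm2 at 1024 and Gstm5 at 2924 of the tested genes. For Gstm1 they were Slc45a4 (0.975), Gstm3 (0.958), Plcg1 (0.954), Myo6 (0.954) and Rhpn2 (0.952), with Gstm2 at rank 209, Gstm6 at 556 and Gstm5 at 2198. For Gpx2 they were Ptprtos, Plekhf1, Atg9b, Rab24 and Bend5, at 0.92 to 0.93.

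**Figure D5:**
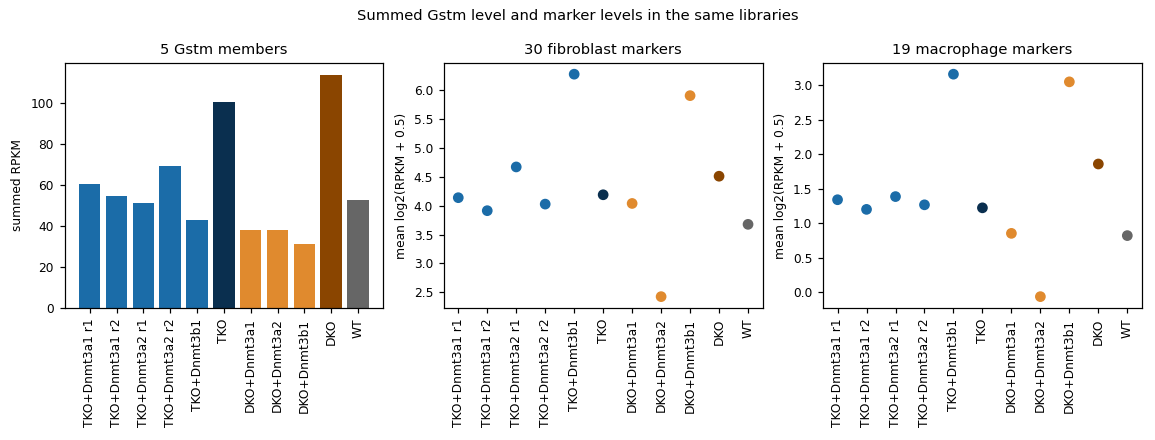
Summed RPKM of the 5 mu-class genes (left, linear, from 0) and mean log2(RPKM + 0.5) of 30 fibroblast and 19 macrophage markers (middle and right) in the 11 libraries, each bar or point 1 library. The Gstm sum is highest in DKO (114 RPKM) and TKO (101 RPKM), whereas both marker means are highest in the Dnmt3b1 libraries and lowest in DKO+Dnmt3a2.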

How the data were processed

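The authors deposited an RPKM value for each of 24016 genes in 11 libraries. The library kit for polyadenylated RNA keeps no strand, per the labels' protocols, so a gene and its antisense partner cannot be separated. The submitters' processing notes name bcl2fastq 1.8.4, STAR 2.4.0 and the build mm9, with no role or order. The counting tool, the handling of reads that match several genes and the gene lengths are not given in the sources used here. The table held 0 other per-sample columns.

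Depth was estimated from the spacing of RPKM values of transcripts up to 400 nt, as the total at which most values came to whole reads of up to 5 within 0.05. At that total 88.3% to 91.9% of values were whole, against medians of 1.8% to 2.7% at other totals. Counting error is the only error this depth describes.

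The 14229 genes that reached 1 RPKM in any library were tested as log2(RPKM + 0.5) with limma 3.58.1 (lmFit, eBayes with trend) in R 4.3.3. Called means a Benjamini-Hochberg adjusted p under 0.05 over all tested genes. Enzyme put back against parent, the families, and Dnmt3b1 against the Dnmt3a isoforms were fitted on 10 libraries with additive terms for family and enzyme (5 residual degrees of freedom). TKO and DKO against WT and the isoforms used 9 group means (2 residual degrees of freedom), so single libraries borrow the spread of the 2 replicated lines. The fits were also run on simulated data in which every gene had the same spread. The spread of the real genes differs, so no conclusion is drawn from that run. The neighbours by RefSeq order and the recount of the pathway lists under other scalings were added after the values were seen.

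The members, gene lists and tests were chosen with earlier results of these data known. Every member was given in each library, with a log2 change only where called or at least 1 in size. Pathway genes were named as up to 4 called per direction and list, plus a set list of pathway genes, and the 5 most alike by Pearson's r. Chromosomes, promoters and gene order came from RefSeq on GRCm38, and no coordinates were converted from mm9. Alternatives were the pseudocount, the filter, scaling, removal of chromosome medians, other fits, each family alone, and leaving out each library.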

Additional observations from a re-analysis of the deposited data

How the results depend on the processing

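Over the alternatives run, no named change of a member turned its direction. In counts of called genes, enzyme put back against parent (559) gave 173 with no filter, 320 with chromosome medians removed, 3 with each line counted once, 3 without both Dnmt3b1 libraries, 0 with 9 group means, 0 in the TKO family alone and 0 to 867 with 1 library left out. The families (2990) gave 1802 with 9 group means, 1688 with each line once, 1794 without both Dnmt3b1 libraries and 651 to 3245 with 1 library left out, the lowest being 651 without DKO+Dnmt3a2, 1096 without DKO+Dnmt3a1, 1788 without TKO+Dnmt3b1, 1790 without DKO+Dnmt3b1 and 1817 without replicate 2 of TKO+Dnmt3a1. Of the 9 members, 2 were called there, against 1 with no filter, quantile normalization, median ratio scaling, chromosome medians removed or 9 group means, and 0 to 3 with 1 library left out. Dnmt3b1 against the Dnmt3a isoforms (2943) gave 1898 with 9 group means, 494 in the TKO family alone and 77 (without TKO+Dnmt3b1) to 3338 with 1 library left out, with 179 without DKO+Dnmt3b1, 1861 without DKO+Dnmt3a2 and 1915 and 1952 without either TKO+Dnmt3a1 library. Its 3 members (1 higher and 2 lower) became 1 with no filter or 9 group means, 0 in the TKO family alone and 0 to 3 with 1 library left out. With quantile normalization, median ratio scaling or chromosome medians removed, 1 member was higher and 3 were lower. TKO against WT (49) gave 76 with 1 RPKM in at least 2 libraries, 0 with quantile normalization, 12 with median ratio scaling, 82 with chromosome medians removed and 0 to 49 with 1 library left out. DKO against WT (0) gave 71 with no filter. The causes were not tested.

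The TKO+Dnmt3a1 and TKO+Dnmt3a2 libraries share only a replicate number. Deviations of number 1 in the 2 lines correlated at 0.0859 across genes, so no pairing was assumed. With the replicate number as a block, 6 genes were called in place of 1. Pseudocount 0.1, no filter, quantile normalization, median ratio scaling or these 4 libraries alone gave 0, and leaving out 1 library gave 0 to 1. The DKO family alone has no residual degrees of freedom, so it gave values and no count. Values under 1 RPKM rest on few reads, and 7 of 9 groups have 1 library.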
